A study of Homo sapiens with 6 samples.

Results

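CCL5 and 9 other chemokines that epithelial cells can make were followed in SNU638, a human gastric cancer cell line. The 10 genes were CCL5, CCL20, CXCL1, CXCL2, CXCL3, CXCL5, CXCL8, CXCL10, CXCL11 and CXCL16. Every probe annotated to 1 of these symbols alone, or to an earlier name of it such as IL8 for CXCL8, was taken, which gave 14 of the 29377 probes on the array. CCL5 headed this set because it was already known to be higher in these samples, so the difference of the chemokines between the groups is described here and not tested. RNA was measured on 6 Illumina Human HT-12 arrays, 3 of a stable line overexpressing LAP2β and 3 of mock cells with the empty vector. LAP2β is a protein of the inner nuclear membrane encoded by TMPO. Cells received its cDNA under a CMV promoter along with a neomycin resistance plasmid and were selected in G418, and the mock cells were made in parallel. An effect of LAP2β cannot be told apart from another difference between this line and the mock cells. The sources used here do not say whether the 3 samples of a group were separate cultures, so the spread between them may be technical.

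Chemokines are small secreted proteins that direct the movement of cells along a gradient, through receptors coupled to G proteins. CCL5, also called RANTES, attracts T cells, monocytes and eosinophils. CXCL1, CXCL2, CXCL3, CXCL5 and CXCL8 attract neutrophils through CXCR2, CXCL10 and CXCL11 are induced by interferon and bind CXCR3, CCL20 binds CCR6, and CXCL16 is made as a membrane protein that is shed from the cell surface. In epithelium, many of these genes are induced by NF-kB in response to infection or inflammatory cytokines.

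The stretches shown next are the sites at which the promoters of these chemokines look alike. RefSeq promoters of build GRCh38.p14, each 250 bases before to 50 bases after a gene's start, were matched for 8 of the 10 genes. CCL5 and CXCL16 were not matched. The letters GGAANTTCC, the inner part of a kappaB site to which NF-kB can bind and the same motif on both strands, were found in 7 of the 8 promoters and in 0.965% of 35116 promoters of the same length. The motif was chosen after the sequences had been read, and a match of letters is not a measured site. Each line gives 5′ to 3′ the match in capitals with 10 bases on either side.
CXCL1: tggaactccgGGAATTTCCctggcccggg
CXCL2: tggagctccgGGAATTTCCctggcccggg
CXCL3: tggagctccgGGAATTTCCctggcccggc
CXCL5: atgagttcagGGAATTTCCccagcatccc
CXCL8: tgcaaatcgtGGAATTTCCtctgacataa
CXCL10: aggagcagagGGAAATTCCgtaacttgga
CXCL11: actcaaagagGGAAATTCCtgtgccataa
These stretches lie on chromosome 4, at chr4:73869305-73869333 on the plus strand for CXCL1 and chr4:73740468-73740496 on the plus strand for CXCL8. The others are on the minus strand, at chr4:74099254-74099282 for CXCL2, chr4:74038749-74038777 for CXCL3, chr4:73998749-73998777 for CXCL5, chr4:76023655-76023683 for CXCL10 and chr4:76036127-76036155 for CXCL11. The match began 75 to 91 bases before the start in all of them except CXCL10, where it began 176 bases before. The promoters of CXCL1 and CXCL3 were 82.5% identical over the whole 300 bases, those of CXCL1 and CXCL2 73.3%, and those of CXCL2 and CXCL3 72.2%. A further motif, GAAA followed after any pair of bases by GAAA on either strand, the core of the interferon-stimulated response element, was present in CXCL10 alone among the 8 and in 3.57% of all promoters.
CXCL10, response element: tcatgttttgGAAAGTGAAAcctaattcac
This stretch is at chr4:76023699-76023728 on the minus strand. CCL20 had neither motif in its promoter window.

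The deposited signals were quantile normalized between the arrays. A probe was called above background on an array where its detection p-value was under 0.01, and was kept when 3 or more of the 6 arrays, of either group, met this. On mock replicate 3 this rests on an estimate from signal ranks. Of the 14 chemokine probes 7 were kept, which belong to 6 genes, namely CCL5 with both of its probes, CCL20, CXCL1, CXCL8, CXCL10 and CXCL16. CXCL2, CXCL3, CXCL5 and CXCL11 had no kept probe. Over the whole array 13323 probes were kept, and each array had 44.1% to 46.6% of its probes above background. Of the 9 measured epithelial markers 7 were above background on all arrays, among them EPCAM, KRT8 and KRT18. Of 17 measured leukocyte markers 2, CD68 and LYZ, were above background on all arrays, while PTPRC, CD3D, CD3E, GNLY and NKG7 were so on none, and the summed signal of the list was 6853 to 7911 in the LAP2β line and 6325 to 10073 in mock cells. The kept TMPO probe, which is annotated to the α transcript, had a log2 fold change of -0.032 over mock cells (SE 0.12, limma adjusted p = 0.943), and no array showed the β probe above background. The arrays thus gave no check of the transgene.

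CCL5 was higher on each LAP2β array than on every mock array. The brighter of its 2 probes had normalized signals of 2465, 1722 and 1596 on LAP2β arrays 1 to 3, against 1075, 789 and 572 on mock arrays 1 to 3. The lowest LAP2β array stood well above the highest mock array, and replicate 1 had the highest signal in both groups. The mean log2 signal was 10.89 ± 0.33 in the LAP2β line and 9.62 ± 0.46 in mock cells (SD, n = 3 each), a log2 fold change of 1.27 (standard error, SE, 0.21, 95% interval 0.80 to 1.74), or 2.41-fold. The other CCL5 probe gave 1211, 688 and 726 on LAP2β arrays 1 to 3, against 529, 375 and 377 on mock arrays 1 to 3. Its groups did not overlap either, and its log2 fold change was 1.005 (SE 0.20, 95% interval 0.56 to 1.45), or 2.01-fold. In RNA from whole cultures, a larger share of expressing cells and more mRNA per cell cannot be told apart.

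**Figure D1:**
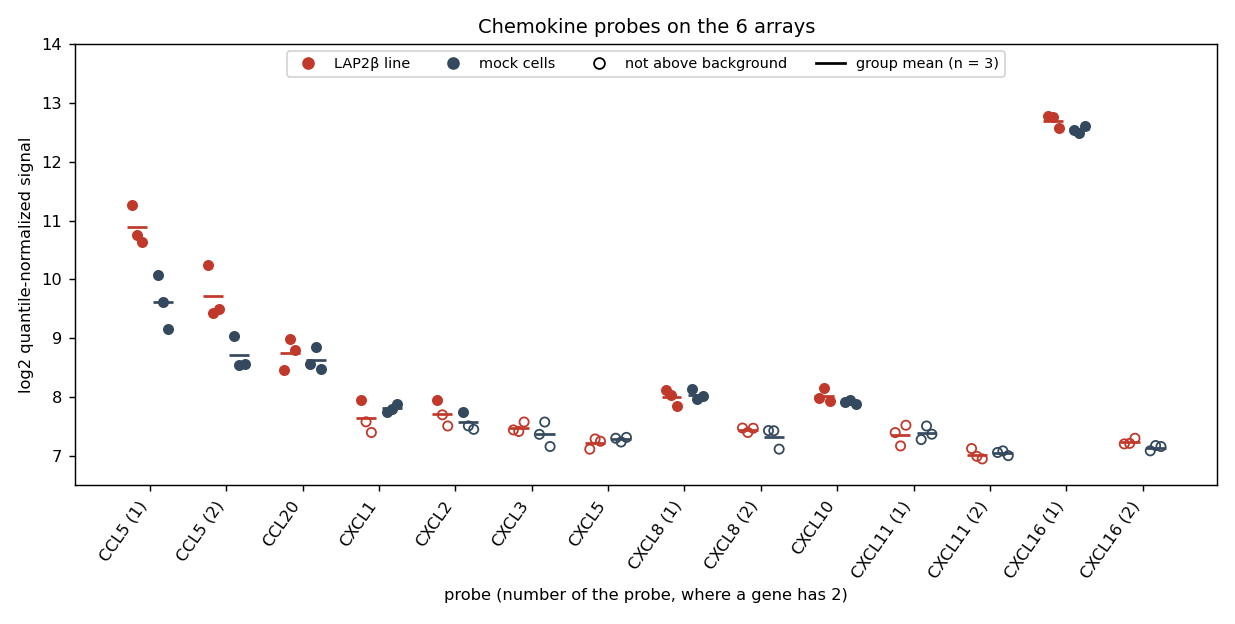
Log2 quantile-normalized signal (vertical axis) of the 14 chemokine probes (horizontal axis) on the LAP2β arrays (red, left) and the mock arrays (dark, right). Filled points are above background, open points are not, and bars are the means of 3 arrays. The groups of both CCL5 probes are apart with every point above background, and the points of the first CXCL16 probe, from 12.50 to 12.78, overlap between the groups. Levels of different probes cannot be set against each other, since probes differ in how they bind.

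Set within same-numbered arrays, the brighter CCL5 probe was 1.20 higher on the log2 scale in LAP2β replicate 1 than in mock replicate 1, 1.13 higher in replicate 2 and 1.48 higher in replicate 3. The other probe was higher by 1.19, 0.87 and 0.95. Since the groups of neither probe overlapped, every such difference had to be positive. Of the 7 kept chemokine probes, these 2 were the ones called in the limma fit over all kept probes at an adjusted p under 0.05, where 1.65% of all kept probes were called, 1.10% higher and 0.555% lower. Of all those calls 66.4% were higher, and 21.2% with median scaling and 20.9% without normalization between arrays. The CCL5 probes were also the ones among the 7 whose groups did not overlap, as in 19.0% of all kept probes, 8.83% with the LAP2β arrays above. Because CCL5 was chosen on this comparison, nothing is read from these counts. With background correction by neqc 0 of the 7 were called, and likewise with a robust eBayes with a trend and without mock replicate 2, while 1 was called without LAP2β replicate 3 or mock replicate 3. The log2 fold change of the brighter probe was 1.04 to 1.49 over all settings tried, which reuse these same arrays.

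The other chemokines above background had groups that overlapped. CCL20, which attracts cells that carry CCR6, had signals of 353, 507 and 444 on LAP2β arrays 1 to 3, against 380, 463 and 358 on mock arrays 1 to 3. Its log2 fold change was 0.11 (SE 0.14, 95% interval -0.20 to 0.42). Replicate 2 was the highest array of CCL20 in both groups, unlike for CCL5.

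The neutrophil attractants stood close to background or at it. CXCL8, the interleukin-8 that attracts neutrophils to epithelium, had signals of 279.8, 261.9 and 231.2 on LAP2β arrays 1 to 3, against 282.0, 249.2 and 259.1 on mock arrays 1 to 3. These values interleaved, with a log2 fold change of -0.035 (SE 0.10, 95% interval -0.26 to 0.19). The other CXCL8 probe was above background on no array, so the gene is read from the brighter one alone. CXCL1 had signals of 246.2, 191.5 and 168.9 on LAP2β arrays 1 to 3, against 214.2, 222.5 and 236.6 on mock arrays 1 to 3. It was above background on 1 of 3 LAP2β arrays and on all 3 mock arrays, and LAP2β replicate 1 was the highest of the 6. The log2 fold change of CXCL1 was -0.17 (SE 0.13, 95% interval -0.45 to 0.12), and -0.40 after neqc.

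CXCL2, which shares with CXCL1 the receptor and most of the promoter, was above background on LAP2β replicate 1 and mock replicate 1 alone. Its signals were 246.4, 208.0 and 182.4 on LAP2β arrays 1 to 3, against 214.8, 182.5 and 175.2 on mock arrays 1 to 3. The groups of CXCL2 overlapped, with LAP2β replicate 3 level with mock replicate 2. The probes of CXCL3, CXCL5 and CXCL11, the second probe of CXCL8 and the second probe of CXCL16 were above background on none of the 6 arrays. CXCL3 is a close relative of CXCL1 and CXCL2, and the probes of these 3 genes may not tell their RNAs apart. It had 174.1, 170.9 and 191.1 on LAP2β arrays 1 to 3, against 165.3, 191.0 and 143.2 on mock arrays 1 to 3. CXCL5, the attractant also known as ENA-78, had 138.7, 156.5 and 152.3 on LAP2β arrays 1 to 3, against 157.8, 151.0 and 159.4 on mock arrays 1 to 3. Both genes had overlapping groups. The second probe of CXCL16 was the only chemokine probe at background whose groups did not overlap, with 147.7, 148.5 and 157.8 on LAP2β arrays 1 to 3, against 136.1, 144.8 and 143.2 on mock arrays 1 to 3. The 7 chemokine probes that were not kept had signals of 123.7 to 246.4, and differences in log2 signal of -0.067 to 0.15, from which no fold is given, since they are at background.

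CXCL10 and CXCL11 are the interferon-induced chemokines of the set. CXCL10 had signals of 253.0, 286.8 and 244.1 on LAP2β arrays 1 to 3, against 241.2, 246.9 and 235.8 on mock arrays 1 to 3. It was above background on every array, and LAP2β replicate 3 lay below mock replicate 2. Its log2 fold change was 0.11 (SE 0.093, 95% interval -0.093 to 0.32), and 0.23 after neqc. The brighter of the CXCL11 probes had 168.7, 144.2 and 184.0 on LAP2β arrays 1 to 3, against 155.4, 182.3 and 165.5 on mock arrays 1 to 3. All of these lie at background and interleave, and so do those of the other CXCL11 probe.

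CXCL16, whose soluble form attracts cells that carry CXCR6, had signals of 7010, 6896 and 6084 on LAP2β arrays 1 to 3, against 5958, 5775 and 6270 on mock arrays 1 to 3. LAP2β replicate 3 lay below mock replicate 3, so the groups overlapped. The log2 fold change was 0.15 (SE 0.093, 95% interval -0.055 to 0.35). It was -0.014 with median scaling and -0.029 without normalization between arrays. The median over all kept probes was -0.13 and -0.14 there, and relative to it CXCL16 was higher under both.

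**Figure D2:**
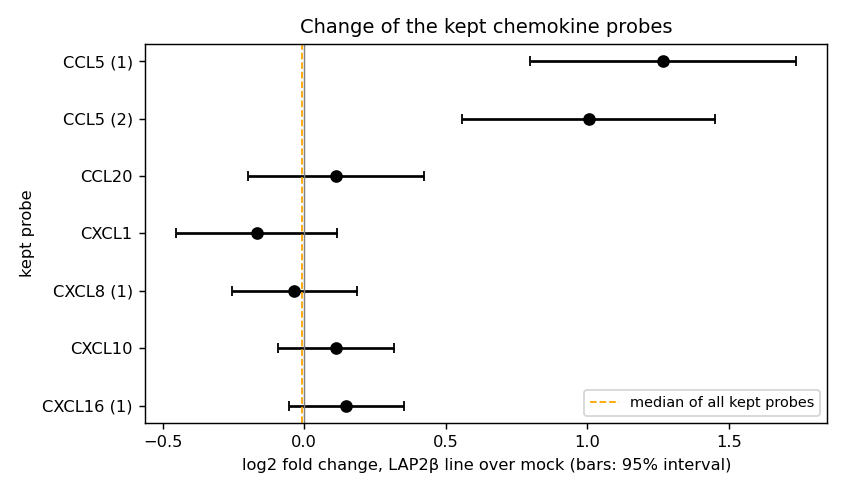
Log2 fold change of the LAP2β line over mock cells (horizontal axis) for the 7 kept chemokine probes (vertical axis), with 95% intervals from the limma fit over 3 arrays of each group. The intervals of the CCL5 probes begin at 0.80 and 0.56, and those of the other 5 probes include 0. The dashed line is the median of all kept probes, -0.0082.

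The 5 kept probes of the chemokines other than CCL5 had log2 fold changes of -0.17 to 0.15 with a median of 0.11, beside a median of -0.0082 over all kept probes. The upper ends of their intervals were 0.42 or below.

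The arrays of a group differed in the brighter CCL5 probe in the way that interferon-stimulated genes differed. From the mean of their group, the brighter CCL5 probe deviated by 0.38, -0.14 and -0.25 on LAP2β arrays 1 to 3 and by 0.45, 0.0056 and -0.46 on mock arrays 1 to 3, on the log2 scale. The median deviation of 31 kept interferon-stimulated genes was 0.40, -0.086 and -0.35 on LAP2β arrays 1 to 3 and 0.32, -0.075 and -0.32 on mock arrays 1 to 3. Replicate 1 was thus the high array of each group in both measures. The other CCL5 probe was also highest on replicate 1, at 0.52 in the LAP2β line and 0.33 in mock cells. Its replicate 3 was not below replicate 2, at -0.22 and -0.30 in the LAP2β line and -0.16 and -0.17 in mock cells. For CXCL10 replicate 1 was not the high array, but its signals were close to background, which limits this comparison. Its deviations were -0.043, 0.14 and -0.095 on LAP2β arrays 1 to 3 and -4e-04, 0.033 and -0.033 on mock arrays 1 to 3. Over the 6 arrays, which CCL5 and these genes share, Pearson's r with CCL5 had a median of 0.85 for the interferon-stimulated genes. For all genes with a kept probe except CCL5, the interferon-stimulated ones included, the median was -0.055. Over the deviations alone the medians were 0.89 and -0.034. Among the chemokines, r over the 6 arrays was 0.68 for CXCL16, 0.55 for CXCL10, 0.17 for CXCL8, 0.12 for CCL20 and -0.25 for CXCL1. Over the deviations the order differed, with 0.72 for CXCL8, 0.36 for CXCL1, 0.14 for CXCL16, 0.022 for CXCL10 and -0.30 for CCL20.

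**Figure D3:**
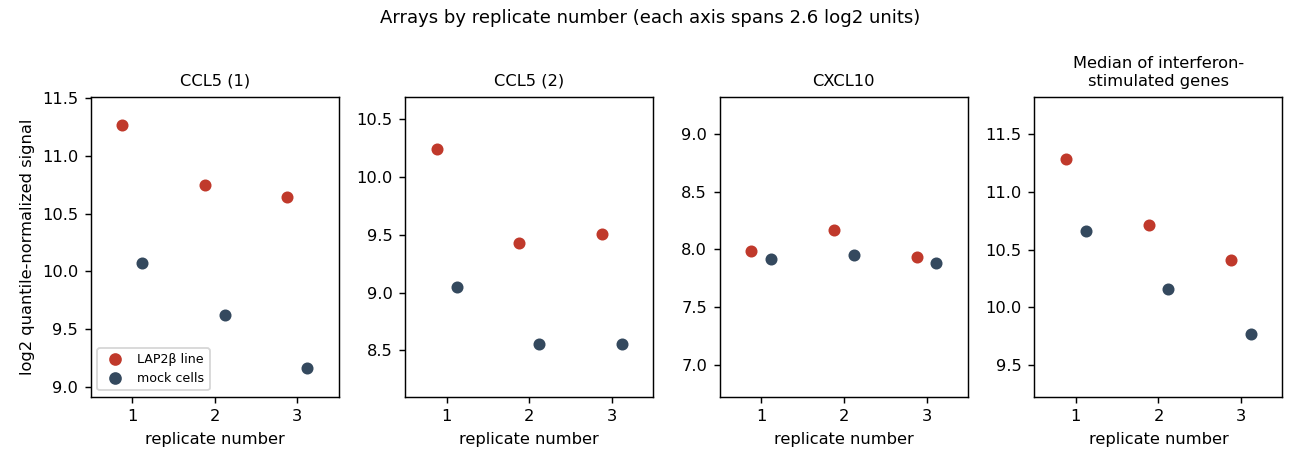
Log2 quantile-normalized signal (vertical axis) against the replicate number in the sample labels (horizontal axis) for both CCL5 probes, CXCL10 and the median of 31 interferon-stimulated genes, in the LAP2β line (red) and mock cells (dark). Replicate 1 is the highest of its group for both CCL5 probes and for the interferon-stimulated genes, while for CXCL10 it is replicate 2.

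The genes whose signal was most like that of CCL5 over the 6 arrays were CEACAM1, an adhesion molecule of the carcinoembryonic antigen family (r = 0.995), TCEAL3 (0.993), MYD88, the adaptor of Toll-like and interleukin-1 receptors that leads to NF-kB (0.993), NABP1, which binds single-stranded DNA (0.992), and RAB24, a small GTPase (0.991). Each of these r values is a description of 6 arrays that form 2 groups. Over the deviations from the group means their r was 0.97 to 0.99. MYD88 had log2 signals of 9.04, 8.84 and 8.73 on LAP2β arrays 1 to 3, against 8.58, 8.45 and 8.23 on mock arrays 1 to 3. All LAP2β arrays of MYD88 lay above all mock arrays, but its log2 fold change of 0.45 did not pass the test over all probes (SE 0.12, limma adjusted p = 0.1005, and 0.00499 in a fit that pairs same-numbered arrays).

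The genes that surround the chemokines in their pathway were then tested in lists by role. The brightest kept probe stood for each gene, and 1.79% of the 9905 genes so measured were called, 1.17% higher and 0.616% lower. Of 33 other chemokines with a probe, PPBP, the precursor of a neutrophil attractant of platelets, had a kept probe, and 32 did not. PPBP had a log2 fold change of 0.16 (SE 0.084, limma adjusted p = 0.449). Of 21 chemokine receptors with a probe, CCR6 and CCR9 were kept and 19 were not. CCR6, the receptor of CCL20, had a log2 fold change of 0.13 (95% interval -0.13 to 0.39, limma adjusted p = 0.698) and CCR9, the receptor of the gut chemokine CCL25, one of 0.058 (limma adjusted p = 0.868). The receptors of the neutrophil attractants were among the genes not kept.

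Of 10 enzymes that cut chemokines or release them, ADAM10, ADAM17 and FURIN were kept and 0 passed the limma test, against 1 at an unadjusted p under 0.05. The share of all genes under that unadjusted cut was not counted, so nothing is read from this count. ADAM10, which sheds CXCL16 from the cell surface, had log2 signals of 10.25, 10.49 and 10.23 on LAP2β arrays 1 to 3, against 9.90, 10.01 and 9.83 on mock arrays 1 to 3. The groups did not overlap, and the log2 fold change of ADAM10 was 0.41 (SE 0.10, limma adjusted p = 0.0794). When same-numbered arrays were paired in the fit, its adjusted p was 0.00891. The other kept ADAM10 probe had a log2 fold change of 0.21 (limma adjusted p = 0.515, and 0.214 when paired). FURIN, a proprotein convertase, had -0.12 (limma adjusted p = 0.615).

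Of 22 cytokines and receptors that induce chemokines, 12 were kept and 0 passed the limma test, with a median log2 fold change of 0.033. At an unadjusted p under 0.05 from limma there were 3, again without a share of all genes, and nothing is read from them. The interferon gamma receptor chains ran in opposite directions, with 0.39 for IFNGR1 (SE 0.094, adjusted p = 0.0748) and -0.45 for IFNGR2 (SE 0.11, adjusted p = 0.0804, both from limma). When paired by number both passed the test, at adjusted p = 0.0136 for IFNGR1 and 0.00899 for IFNGR2, and so did LTB, lymphotoxin beta (log2 fold change 0.66, adjusted p = 0.154 without pairs and 0.00182 with pairs). LTB was picked out after its value had been seen. IFNGR2 passed the test as lower with median scaling (adjusted p = 0.0159) and without normalization between arrays (0.0114), again from limma. The median over all kept probes was itself -0.13 and -0.14 there, which limits these calls.

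Of 16 kept transcription factors and regulators that act on chemokine promoters, 2 were called higher, 0 lower and 14 did not pass the test. NFKBIZ, a nuclear IkB protein that works with NF-kB on a subset of its targets, had log2 signals of 9.23, 9.04 and 8.78 on LAP2β arrays 1 to 3, against 8.09, 8.18 and 8.26 on mock arrays 1 to 3. The lowest LAP2β array was still above the highest mock array. NFKBIZ was 1.79-fold higher (log2 fold change 0.84, SE 0.12, limma adjusted p = 0.00381), and its log2 fold change was 1.29 after neqc. ATF3, a stress-induced factor, was 1.45-fold higher (log2 fold change 0.54, SE 0.088, limma adjusted p = 0.00890). ATF3 did not pass without normalization between arrays (adjusted p = 0.0628), without LAP2β replicate 2 (0.0573) or without mock replicate 2 (0.0768). In the paired fit, which called 821 of all 13323 kept probes against 220 without pairs, 3 genes of the list were called higher and 1 lower. The further ones were IRF1, an interferon-induced factor (log2 fold change 0.52, adjusted p = 0.00316 with pairs and 0.206 without, from limma), and FOSL1, a Fos family member of AP-1 (-0.53, adjusted p = 0.00173 with pairs and 0.0927 without, from limma), both named after their values had been seen. With median scaling NFKBIZ and ATF3 were higher and FOSL1 and CEBPB lower, 4 calls in all. The median over all kept probes was -0.13 under that scaling, which limits the lower calls. CEBPB, a C/EBP factor of acute-phase genes, was likewise named after its value had been seen (adjusted p = 0.0411 from limma).

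Of 9 kept genes of the RNA-sensing pathway, which leads from viral RNA in the cell to interferons and CCL5, 1 was called higher and 0 lower. DHX58, an RNA helicase also called LGP2, had log2 signals of 8.91, 8.50 and 8.40 on LAP2β arrays 1 to 3, against 7.91, 7.67 and 7.57 on mock arrays 1 to 3. It was above background on 3 LAP2β arrays and 1 mock array, so it met the filter through the LAP2β line, where it is high, and it is not among the probes above background on all 6 arrays. Its log2 fold change of 0.88 (SE 0.14, limma adjusted p = 0.00767) is taken against mock signals mostly at background and was 1.68 after neqc. Without mock replicate 2 its adjusted p was 0.0650. RIGI, a helicase that senses viral RNA, had a log2 fold change of 0.32 (SE 0.11, limma adjusted p = 0.204, and 0.0421 when paired). The median over the 9 genes was 0.18, beside -0.0068 over all genes. TLR3, with a log2 fold change of 0.22, was likewise above background on 3 LAP2β arrays and 1 mock array. DHX58 and TLR3 thus both met the filter through the group where they are high, and nothing is read from this median.

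**Figure D4:**
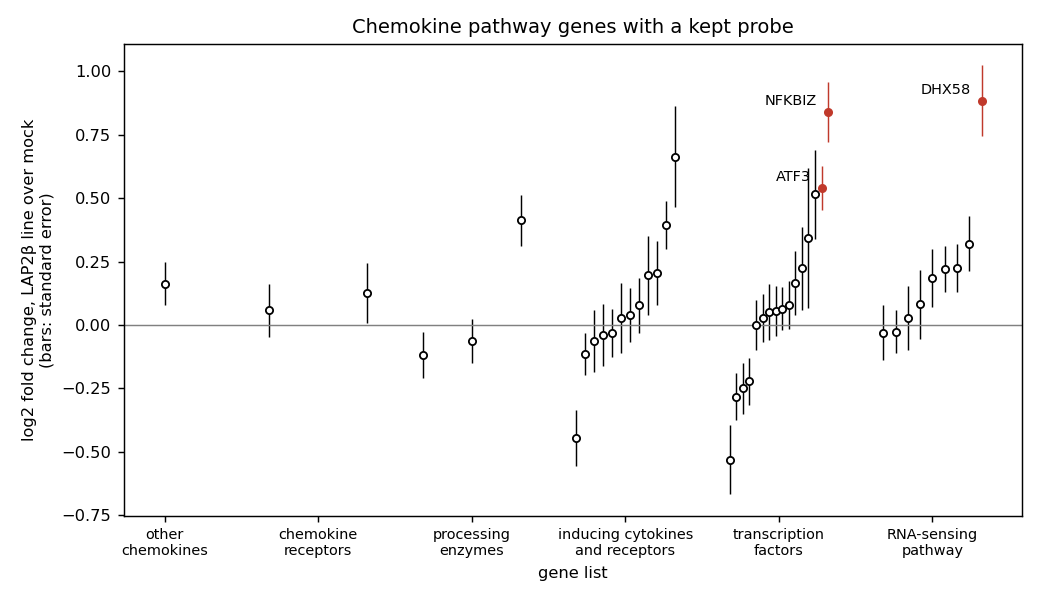
Log2 fold change of the LAP2β line over mock cells (vertical axis, bars are SEs from limma) for the kept genes of 6 lists of the chemokine pathway (horizontal axis), in order of size within a list. Red filled points passed the test at an adjusted p under 0.05, namely NFKBIZ at 0.84, ATF3 at 0.54 and DHX58 at 0.88, and the other genes did not.

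Of the 31 kept interferon-stimulated genes, 29 had a log2 fold change above 0, with a median of 0.44 beside -0.0068 over all genes. They varied together between the arrays, with a median r of 0.89 to CCL5 over the deviations. The genes are thus not independent observations. IFIT2 (2.92-fold), IFIT3 (2.89-fold) and PSMB8 (1.42-fold) were higher and IFI44 was lower (log2 fold change -0.93), with adjusted p from 0.0126 to 0.0331 from limma. The other 27 were not called. PSMB8, a subunit of the immunoproteasome, was called on 1 of its 4 kept probes, and the others had log2 fold changes of 0.39 (limma adjusted p = 0.195), 0.26 (0.478) and -0.025 (0.942). With median scaling and without normalization between arrays PSMB8 was not called and IFIT1 was. In the paired fit, which called 821 of all 13323 kept probes against 220 without pairs, 19 were called higher and 1 lower. The counts were 0 after neqc, 0 without LAP2β replicate 2 and 0 without mock replicate 2, and without mock replicate 1 they were 11 higher and 1 lower. CXCL10, with a log2 fold change of 0.11, stood below the median of this list, and that difference was not tested. The signals of CXCL10 were close to background, and its log2 fold change was 0.23 after neqc, which limits this comparison.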

How the data were processed

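The authors labelled RNA with the Illumina TotalPrep kit, hybridized it to Human HT-12 bead chips and processed the scans with BeadStudio. They deposited intensity values before normalization, quantile normalized intensity values, both linear, and a detection p-value for each probe. The series matrix holds 29285 probes with the intensity values of their normalized table (column medians 196.07 to 196.17 in the full table, 196.68 to 196.78 in the matrix). Whether background was subtracted is not given in the sources used here. The deposited tables hold 2 detection columns, left aside because their name fits no sample. For mock replicate 3, each signal was ranked and given the middle detection p-value found at the same rank among the remaining 5 arrays.

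Signals before normalization were quantile normalized (limma 3.58.1, R 4.3.3), taken to log2 and fitted with lmFit and eBayes, with Benjamini-Hochberg adjustment over the 13323 kept probes. Symbols came from the platform annotation, updated by gene ID through a RefSeq table of GRCh38.p14 (27819 probes matched). Of all probes, 27988 had 1 symbol and 1389 had several or none listed. The members, lists and alternatives were chosen with earlier results of these data known. The genes named are the chemokines, TMPO, for each list those called and the 2 with the smallest adjusted p, and the 5 most like CCL5 by Pearson's r. Other genes were chosen after their values were seen. A p-value here covers no more than the spread of these arrays, whose number limits the precision.

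Same-numbered arrays of both groups deviated together from their group means (r = 0.544, 0.228 and 0.368 over the kept probes), so the numbers were taken as pairs in an alternative fit. The sources do not say what a number shares. No slide or scan date was given.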

Additional observations from a re-analysis of the deposited data

How the results depend on the processing

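CCL5 was higher in all 19 alternatives, but these reuse the arrays on which it was chosen. With groups that did not overlap, leaving out single arrays could not change the direction. Changes of filter or test and pairing by number left the fold change as it was. The shared direction is thus no independent check. The log2 fold change of the brighter CCL5 probe was 1.04 to 1.49, both over all alternatives and with single arrays left out. That of the other CCL5 probe was 0.75 to 1.302 over all alternatives and 0.75 to 1.17 with single arrays left out. The count of called chemokine probes, 2, was 0 after neqc, 0 with a robust eBayes with a trend, 0 in the methods' t-test after Benjamini-Hochberg adjustment and 0 to 2 with single arrays left out. The count over all kept probes, 220, was 145 after neqc, 537 with median scaling, 521 without normalization between arrays and 99 to 279 with single arrays left out, the lowest without mock replicate 2 and 126 without LAP2β replicate 2. In the methods' t-test it was 1616 unadjusted and 1 after adjustment.

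The calls of interferon-stimulated genes, 4, were 0 after neqc, 2 with a robust eBayes with a trend and 0 to 12 with single arrays left out. Those of transcription factors, 2, were 4 with median scaling and 1 to 3 with single arrays left out, and the 1 call of the RNA-sensing pathway was 0 where detection on all 6 arrays was asked for and 0 to 1 with single arrays left out. In all lists the methods' t-test left 0 calls after adjustment. Unadjusted it gave 5 for transcription factors, 3 for RNA sensing, 3 for inducing cytokines and receptors, 1 for processing enzymes and 1 for other chemokines. Inducing cytokines and receptors, with 0 calls, had 1 with median scaling, 1 without normalization between arrays and 0 to 1 with single arrays left out. The causes were not tested.

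With the replicate numbers as a block, 821 probes were called, and the counts were 1 for processing enzymes, 3 for inducing cytokines and receptors, 4 for transcription factors, 2 for RNA sensing and 20 for interferon-stimulated genes. Outside the lists, RAB24 also passed (adjusted p = 0.0392 from limma, against 0.169 without the block). So did MYD88 (adjusted p = 0.00499 from limma, against 0.1005 without the block). The block changed no other call among the named genes outside the lists. The signal over background limits what can be said of CXCL1, CXCL2, CXCL3, CXCL5, CXCL8, CXCL10 and CXCL11.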
